A study of Drosophila melanogaster with 20 samples.

Results

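The 10 Drosophila genes followed here carry or receive news of the nutrient state of the fly: upd2, CCHa2, fit, daw, Gbp1 and Gbp2, which encode signals known from fat tissue, Lst and Akh, which encode hormones of the corpora cardiaca, and CCHa2-R and AkhR, which encode receptors. The members were taken by name, and 10 of 10 were present in both deposited tables, among 11780 genes that the tables share. Brains of wild-type W1118 Drosophila melanogaster aged 4 to 7 days were sequenced in 20 libraries, 5 for each of 4 groups. Male flies had eaten either a low-protein, high-carbohydrate food (LPHC) with protein to carbohydrate of 0:1 at 180 g/L, or a high-protein, low-carbohydrate food (HPLC) of 1:1 at 180 g/L. Female flies had eaten LPHC of 1:2 at 360 g/L or HPLC of 1:1 at 90 g/L. The more carbohydrate-rich female food was also the more concentrated one, and sex and recipe cannot be told apart when males are set beside females. The names LPHC and HPLC follow the ratio. If the concentration counts protein plus carbohydrate, female LPHC held more protein per litre than female HPLC, while male LPHC held none. Protein per litre from HPLC to LPHC then went in opposite directions in males and females. The study is about diet and sleep. Its labels do not say whether a library held 1 brain or many, nor how long the flies were fed.

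The fat body, which combines the tasks of liver and adipose tissue, reports on stored and incoming nutrients by releasing peptides into the blood. The insulin-producing cells of the brain are a main target: upd2, the leptin-like cytokine, CCHa2, a peptide hormone, and the growth-blocking peptides Gbp1 and Gbp2 are known to promote insulin release, and fit is known as a satiety signal after protein feeding. The endocrine cells of the corpora cardiaca act in the other direction, through Akh, the glucagon-like hormone that mobilises stored fat and sugar, and Lst (limostatin), which restrains insulin release when nutrients are scarce. Dawdle, the product of daw, is an activin-like ligand known from sugar-responsive fat tissue.

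Values are given as normalised reads, that is, the reads of a gene divided by a size factor for its library, scaled separately for each sex. A log2 difference is the LPHC mean minus the HPLC mean of log2(normalised reads + 1), given with its standard error (SE), and each adjusted p is from limma with Benjamini-Hochberg adjustment over all genes tested, with n = 5 libraries per group throughout. The labels name no separate flies or cultures behind the replicates, so these p-values measure the spread between libraries, which may be technical. Recovered reads per library were 14715340 to 29523858 in male LPHC and 21733987 to 35077559 in male HPLC, and 17029184 to 30077141 in female LPHC and 13901684 to 25106655 in female HPLC. Brain was the labelled tissue, and all 10 listed neuron markers passed the filter in both sexes. Genes of the eye were abundant as well: the photoreceptor list took 8.80% of reads in male LPHC and 7.80% in male HPLC, and 5.41% in female LPHC and 3.86% in female HPLC. Yolk protein genes took 0.118% of reads in male HPLC replicate 4, against 0.00666% to 0.00709% in the other male HPLC libraries. Without that library each member value in males kept its call, and fit, for example, was −5.67 against −5.75 with it.

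RNA of fat body marker genes was present in these libraries, and its share moved with diet in males. The fat body list of 14 genes took 0.368% ± 0.0636 (SD) of reads in male LPHC and 1.37% ± 0.103 in male HPLC, with no overlap (two-sided exact permutation test with p = 0.00794, the lowest value this design can reach, and adjusted p = 0.0132 over 20 marker comparisons). All 11 of its tested genes were called lower on LPHC in males, with a median of −2.44, where 29.6% of all genes tested were. Of these, Lsp2 and Lsp1alpha could pass the filter on low values only through the male HPLC libraries, so their direction was set in advance. The untested list genes were not lower in males: Fbp1 averaged 8.15 normalised reads on LPHC and 3.28 on HPLC, Lsp1gamma 4.54 and 2.69, and Fbp2 1.07 and 1.05. Lsp2, a storage protein and defining fat body marker, was at 0 in 2 male LPHC libraries and at most 2.42 normalised reads in the others, against 12311 to 16467 in male HPLC. The fat body gene apolpp, the precursor of the main lipoprotein of the blood, was present throughout, at 13726 to 26928 normalised reads in male LPHC and 82343 to 94181 in male HPLC. In females the list took 2.09% ± 0.176 of reads in LPHC and 2.11% ± 0.256 in HPLC (two-sided exact permutation test, p = 0.833, adjusted p = 0.877). Its tested genes gave 5 higher, 3 lower and a median of −0.13, where 16.7% of all genes were called higher and 14.8% lower. The 3 yolk protein genes, which the female fat body also makes, took 7.74% ± 0.770 of reads in female LPHC and 13.4% ± 1.15 in female HPLC, with all 3 lower on LPHC (two-sided exact permutation test, p = 0.00794, adjusted p = 0.0132). The summed level of the list ran from 59524.7 to 101408 normalised reads in male LPHC and 317231 to 397792 in male HPLC, and from 361039 to 465157 in female LPHC and 371802 to 550280 in female HPLC. No list gene was at 0 in every library of a group; Fbp1, a receptor for storage proteins, was near the floor everywhere, at 1.10 to 17.6 normalised reads over the 20 libraries. Other lists moved in the same male libraries: muscle genes took 0.491% of reads in male LPHC and 0.248% in male HPLC, glial genes 0.125% in male LPHC and 0.162% in male HPLC, haemocyte genes 0.0224% in male LPHC and 0.0320% in male HPLC, and gut enzyme genes 0.0183% in male LPHC and 0.128% in male HPLC (two-sided exact permutation tests, adjusted p = 0.0132 for each). Only 5 of the 11 gut enzyme genes were in the male table. The 2 called lower were Amy-p (1494 normalised reads on LPHC, 21562 on HPLC) and Amy-d (2405 on LPHC, 11603 on HPLC). Mal-A1 was not called in males (limma adjusted p = 0.153). Jon99Ci (5.50 on LPHC, 2.37 on HPLC) and LysD (1.08 on LPHC, 4.65 on HPLC) were near the floor. Of the haemocyte genes 4 were lower and 1 higher in males. The largest fall was that of srp (954 on LPHC, 4345 on HPLC), while Pxn was higher (3048 on LPHC, 2538 on HPLC). Lists moved in females as well. Glial genes took 0.138% of reads in female LPHC and 0.107% in female HPLC, and gut enzyme genes 0.102% in LPHC and 0.173% in HPLC. Muscle genes took 0.156% in female LPHC and 0.190% in female HPLC, and haemocyte genes 0.0444% in LPHC and 0.0369% in HPLC. By two-sided exact permutation tests adjusted p was 0.0132 for the first 2 lists and 0.0212 for the others. Glial, muscle and haemocyte shares thus moved against their direction in males. Of the haemocyte genes in females, 1 was higher, srp (5953 normalised reads on LPHC, 4856 on HPLC). Pxn was the 1 called lower (1208 on LPHC, 1425 on HPLC), and the list median was −0.11. Of the gut enzyme genes in females, Amy-p (12898 on LPHC, 26356 on HPLC) and Amy-d (7932 on LPHC, 13489 on HPLC) were lower. Mal-A1 was higher (119 on LPHC, 87.1 on HPLC). The part of fat body RNA and of these other tissues in the values below was not tested, and fewer cells of a type cannot be told apart from less RNA per cell in bulk tissue.

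On LPHC, male brain libraries held less fit, CCHa2, Lst, Gbp2 and AkhR RNA and more CCHa2-R RNA. Female brain libraries held more upd2, CCHa2 and fit RNA and less Lst, Gbp1 and Gbp2 RNA. Of the 9 members that passed the filter on low values (10 or more normalised reads in at least 5 libraries of the table), 6 were called in males, 1 higher and 5 lower, where 57.2% of the 10115 genes tested were called (27.6% higher, 29.6% lower). In females 6 of 9 were called, 3 higher and 3 lower, where 31.5% of 9932 genes were (16.7% higher, 14.8% lower). The male groups did not overlap for 6 members, beside 42.7% of all genes, and the female groups for 3, beside 22.1%. The median member value was −0.57 in males and −0.09 in females, and the median over all genes tested was 0.02 in males and −0.02 in females. Scaling the libraries to the same total of reads raised the median gene by 0.25 in males and 0.16 in females; it added upd2 to the male calls and daw to the female ones, both higher, and changed the all-gene split in males to 5610 higher and 1861 lower, against 2794 higher and 2990 lower as deposited. In females that split became 3190 higher and 729 lower, against 1662 higher and 1471 lower as deposited.

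**Figure D1:**
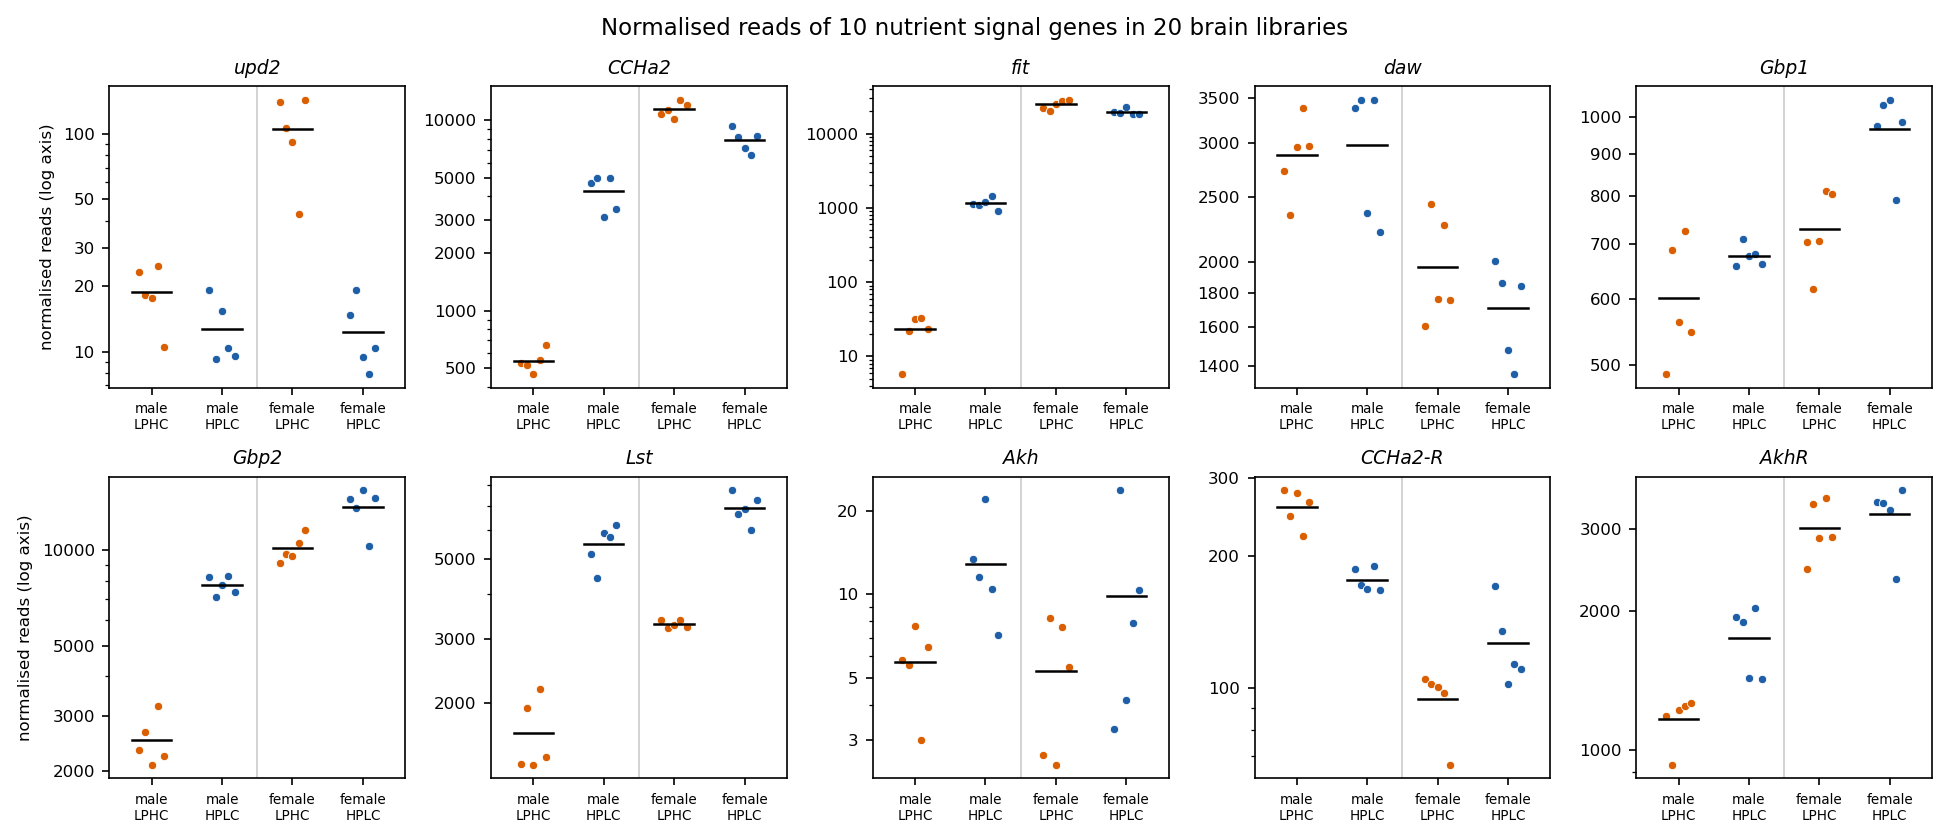
Normalised reads (log axis, scaled separately for each sex) of the 10 genes in every library: points are libraries, orange for LPHC and blue for HPLC, and bars are group means of 5 libraries. In males fit lies between 5.84 and 33.2 on LPHC and between 913 and 1428 on HPLC, while in females no library of either diet lies below 18143.

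Among the signals of fat tissue, fit gave the largest difference of the members in males. It read 5.84, 22.3, 32.0, 33.2 and 23.4 normalised reads in the 5 male LPHC libraries, and 1134, 1103, 1211, 1428 and 913 in the 5 male HPLC libraries. Every male LPHC library thus lay far below every male HPLC library, with replicate 1 of LPHC lowest at only 4 reads. The mean was 49.6-fold lower on LPHC and the log2 difference −5.75 (SE 0.34, adjusted p = 3.81e-09), the 11th largest fall among the genes tested. In females fit read 22248, 20198, 25166, 27146 and 28547 on LPHC and 19279, 18772, 22953, 18143 and 18158 on HPLC. The groups touch, since HPLC replicate 3 lies above 2 LPHC libraries, and the difference was 0.34 (SE 0.10, adjusted p = 0.0218), a 1.27-fold higher mean on LPHC. This call was lost when female LPHC replicate 5 (adjusted p = 0.0631), female HPLC replicate 2 (0.0520) or female HPLC replicate 5 (0.0514) was left out.

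The range of fit across groups was the widest of the members. As RPM, the recovered reads of a gene scaled to the total of its library, which sets the sexes side by side although the tables were normalised separately, fit stood at 1197 ± 149 RPM (SD) in female LPHC, 843 ± 53.3 in female HPLC, 44.4 ± 7.06 in male HPLC and 1.06 ± 0.494 in male LPHC. Each of these neighbours in the order was separate from the next. RPM is a share of a library, and marker shares also differed between the sexes. The neuron list took 0.595% of reads in male LPHC and 0.454% in male HPLC, against 0.241% in female LPHC and 0.229% in female HPLC. The fat body list took 0.368% and 1.37% in those male groups, against 2.09% and 2.11% in the female ones. The part of tissue make-up in RPM differences between sexes was not tested. The name of fit, female-specific independent of transformer, comes from its higher expression in female heads. Its exon overlaps 2 annotated genes, and whether counting used strand is not given in the sources used here. One of them, asRNA:CR45046, averaged 23.1 ± 3.70 normalised reads in female LPHC and 26.4 ± 14.9 in female HPLC, far below fit in females; male values of it, and CG31465, the other overlapping gene, were not analysed here.

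CCHa2, the ligand of CCHa2-R, fell in males and rose in females on LPHC. Male LPHC libraries held 536, 522, 467, 552 and 666 normalised reads of it, against 4673, 4989, 3090.1, 4965 and 3422 in male HPLC. In males the 2 diets were far apart, and within HPLC the replicates 3 and 5 were the low ones. The mean was 7.71-fold lower on LPHC, with a log2 difference of −2.93 (SE 0.13, adjusted p = 2.37e-10). Female LPHC libraries held 10733, 11330.0, 10158, 12811 and 12046, against 9275, 8145, 7171, 6540.2 and 8269 in female HPLC. Here all LPHC libraries lay above all HPLC libraries, by a mean of 1.45-fold and a log2 difference of 0.54 (SE 0.10, adjusted p = 0.000561). The order in RPM was 555 ± 48.6 in female LPHC, 343 ± 48.8 in female HPLC, 162 ± 34.5 in male HPLC and 25.0 ± 3.43 in male LPHC, all separate.

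The cytokine upd2 was scarce in 3 of the groups. Female LPHC libraries held 139.8, 106, 92.0, 42.9 and 144 normalised reads, against 14.8, 19.1, 9.44, 7.91 and 10.4 in female HPLC. Every LPHC library was above the HPLC range, although LPHC replicate 4 had less than the other four by a wide margin. The mean was 8.51-fold higher on LPHC and the log2 difference 2.94 (SE 0.31, adjusted p = 4.08e-06), the 56th largest rise in females. Male LPHC libraries held 23.3, 18.1, 17.6, 24.9 and 10.5, against 19.2, 9.25, 15.4, 10.4 and 9.54 in male HPLC. These overlap, and the value of 0.53 (SE 0.29, adjusted p = 0.138) did not pass the threshold. It did pass at the same total (0.77, adjusted p = 0.0290), at the same upper quartile (adjusted p = 0.0496) and without male LPHC replicate 5 (adjusted p = 0.0466). The male values rest on 91 reads in all of male LPHC and 68 in all of male HPLC, so the counts themselves limit what could be seen.

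The growth-blocking peptides are small secreted peptides made by the fat body, and Gbp1, Gbp2 and their paralogue Gbp3 did not move by equal amounts in males. Gbp2 read 2339, 2655, 2099, 3222 and 2242 in male LPHC and 8231, 7111, 7765, 8303 and 7358 in male HPLC. The diets were well separated, with a mean 3.09-fold lower on LPHC and a log2 difference of −1.64 (SE 0.10, adjusted p = 3.93e-09). Gbp1 read 487, 689, 563, 726 and 547 in male LPHC and 658, 709.7, 677, 682 and 663 in male HPLC. The Gbp1 libraries overlap, the LPHC ones being spread on both sides of the tight HPLC ones, and the value of −0.19 (SE 0.10, adjusted p = 0.113) did not pass. It passed without male LPHC replicate 2 (adjusted p = 0.0463) or replicate 4 (adjusted p = 0.0204), and its sign turned at the same total (0.06). Gbp3, which was no member and was taken as the direct paralogue, averaged 417 ± 88.9 in male LPHC and 4517 ± 119 in male HPLC, a log2 difference of −3.46 (SE 0.11, adjusted p = 6.32e-12).

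In females Gbp1 and Gbp2 both fell on LPHC. Gbp2 read 9147, 9752, 9606, 10568 and 11627 on LPHC and 14523, 13587, 15475, 10322 and 14698 on HPLC, a difference of −0.43 (SE 0.11, adjusted p = 0.00623). Only HPLC replicate 4 lay among the LPHC libraries. Gbp1 read 704, 618, 706, 813 and 806 on LPHC and 973, 1032, 1048, 792 and 986 on HPLC, a difference of −0.41 (SE 0.10, adjusted p = 0.00442), and again HPLC replicate 4 was the library that overlapped. Both calls held at the same total of reads, with smaller values of −0.26 for Gbp2 (adjusted p = 0.0356) and −0.24 for Gbp1 (adjusted p = 0.0413). Gbp3 averaged 5278 ± 535 in female LPHC and 6754 ± 661 in female HPLC (−0.36, SE 0.09, adjusted p = 0.00648), and this call was lost at the same total (−0.19, adjusted p = 0.0856). Gbp2 overlaps a gene on the opposite strand, CG43103, which averaged 265 ± 47.9 in male LPHC and 249.8 ± 22.4 in male HPLC, and 335 ± 42.1 in female LPHC and 483 ± 49.2 in female HPLC, all far below Gbp2.

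Ratios within a library need no scaling between libraries. There were 4.18 ± 0.438 (SD) reads of Gbp2 for each read of Gbp1 in male LPHC, against 11.5 ± 0.977 in male HPLC, and the ranges of 3.73 to 4.80 and 10.02 to 12.5 do not meet. For Gbp3 over Gbp1 the male ratios were 0.690 ± 0.0553 on LPHC and 6.67 ± 0.327 on HPLC. In females the 2 diets overlapped on both ratios: Gbp2 over Gbp1 was 14.0 ± 1.18 on LPHC and 14.2 ± 0.973 on HPLC, and Gbp3 over Gbp1 was 7.25 ± 0.391 on LPHC and 7.01 ± 0.542 on HPLC. Male LPHC was the group apart on both ratios, and for Gbp2 over Gbp1 every male HPLC library also lay below every female one. A ratio shows unequal change and not which of its genes changed.

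**Figure D2:**
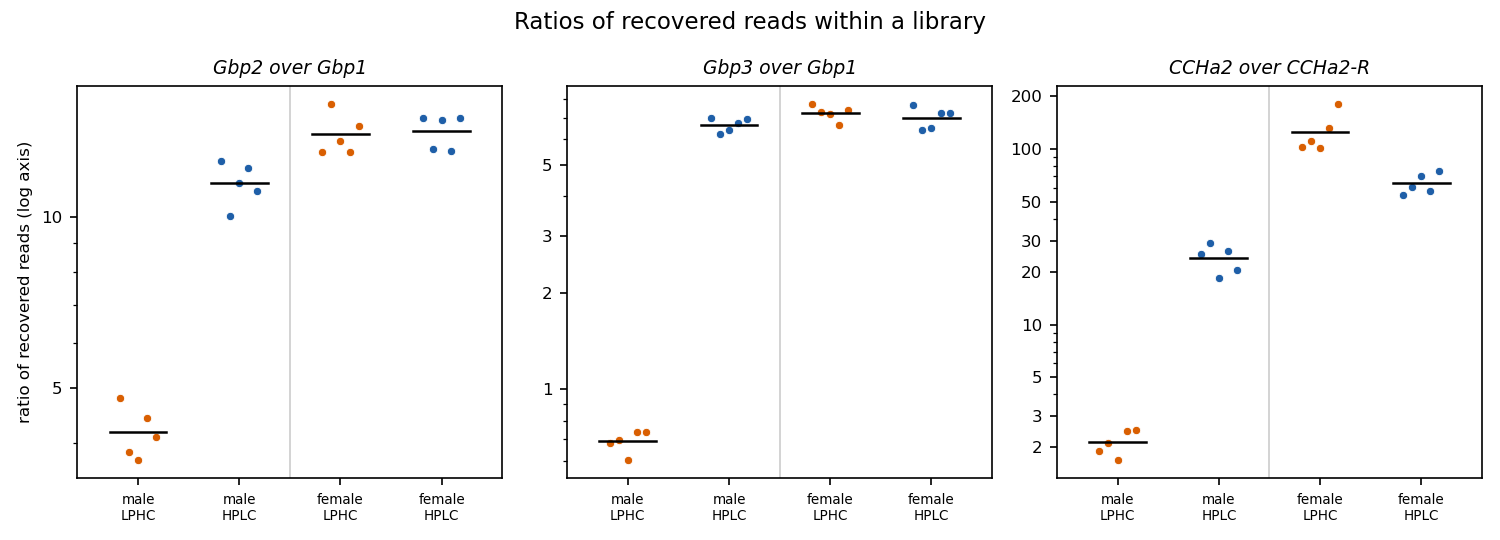
Ratios of recovered reads of a pair of genes within each library (log axis): points are libraries, orange for LPHC and blue for HPLC, and bars are group means of 5 libraries. Gbp3 over Gbp1 is 0.690 in male LPHC and between 6.67 and 7.25 in the other 3 groups, and CCHa2 over CCHa2-R spans 2.14 in male LPHC to 125 in female LPHC.

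The activin-like ligand daw was called in neither sex. It read 2727, 2347, 2967, 3387 and 2970.5 in male LPHC and 3383, 3484, 2362, 3477 and 2218 in male HPLC, with broad overlap (−0.03, SE 0.14, adjusted p = 0.849). It read 1605, 2439.6, 1759.6, 2273 and 1755 in female LPHC and 2006, 1862, 1481, 1364 and 1842 in female HPLC (0.20, SE 0.13, adjusted p = 0.271). At the same total the female value passed (0.36, adjusted p = 0.0474). Within male HPLC, replicates 3 and 5 were the lowest for daw, for CCHa2 and for AkhR alike. Across the groups each daw level overlapped its neighbour in RPM, as was also so for Gbp1 and Akh; the daw means lay between 131 ± 17.5 in male LPHC and 74.4 ± 12.7 in female HPLC.

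Lst was the 1 member that fell on LPHC in both sexes without overlap. Male LPHC libraries held 1364, 1940.0, 1358, 2191 and 1423 normalised reads, against 5148, 4433, 5881, 5746 and 6175 in male HPLC. The male mean was 3.31-fold lower, with a log2 difference of −1.75 (SE 0.13, adjusted p = 6.32e-08). Female LPHC libraries held 3386, 3219.8, 3292, 3399 and 3247, a tight group, against 7705, 6636, 6845, 5998 and 7265 in female HPLC. The female mean was 2.08-fold lower, with a log2 difference of −1.05 (SE 0.07, adjusted p = 5.94e-08). In both sexes the fall kept its call at the same total, at −1.50 in males and −0.89 in females.

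Akh, the hormone that defines the corpora cardiaca, was near the detection floor in the same libraries. Male LPHC libraries held 5.84, 5.58, 7.71, 3.01 and 6.46 normalised reads, against 13.4, 11.6, 21.9, 10.4 and 7.15 in male HPLC. Only HPLC replicate 5 reached into the LPHC range, and the means differed by an exact permutation test (two-sided, p = 0.0159, adjusted p = 0.0317 over the 2 such tests). With no filter on low values limma gave −1.01 (SE 0.32, adjusted p = 0.0168 over all genes of the table). Female LPHC libraries held 2.66, 8.20, 2.45, 7.66 and 5.49, against 3.29, 23.6, 4.20, 7.91 and 10.4 in female HPLC (exact permutation test, two-sided, p = 0.286). The female groups overlap, with HPLC replicates 2 and 5 above every LPHC library. As RPKM, that is, RPM per kilobase of exon, Akh stood at 0.922 ± 0.394 in male HPLC where Lst stood at 105 ± 13.3, so the Lst level was not matched by Akh, the other hormone of the same gland.

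Of the receptors, CCHa2-R was higher on LPHC in males, where its ligand was lower. CCHa2-R, the receptor through which CCHa2 acts on the insulin-producing cells, read 282, 247, 278, 222 and 265 in male LPHC and 186, 172, 168, 189 and 167 in male HPLC. The male groups do not overlap and the mean was 1.47-fold higher on LPHC (0.55, SE 0.08, adjusted p = 7.97e-05). CCHa2-R read 105, 102, 101, 97.3 and 66.8 in female LPHC and 171, 135, 102, 113 and 110.1 in female HPLC. The female groups meet at their edges and the value of −0.41 (SE 0.16, adjusted p = 0.0623) did not pass, although it did without female HPLC replicate 3 (adjusted p = 0.0356). Reads of CCHa2 per read of CCHa2-R came to 2.14 ± 0.361 in male LPHC and 23.9 ± 4.33 in male HPLC, and to 125 ± 33.1 in female LPHC and 63.6 ± 8.84 in female HPLC, with no overlap between diets in either sex.

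AkhR, the receptor for Akh, is known mainly from fat body cells, where it drives the breakdown of stores. It read 1183, 932, 1223, 1243 and 1267 in male LPHC and 1936, 1894, 1434, 2029.9 and 1424 in male HPLC. All male LPHC libraries were below all HPLC libraries, by 1.49-fold in the means (−0.57, SE 0.11, adjusted p = 0.000696). At the same total the male value was −0.32 and still passed (adjusted p = 0.0228). In females AkhR read 2454, 3391, 2868, 3506 and 2879 on LPHC and 3431, 3410.0, 3303, 2340.1 and 3631 on HPLC, which overlap (−0.09, SE 0.12, adjusted p = 0.617). The female level was above the male one on either diet in RPM, at 147 ± 20.4 in female LPHC and 140 ± 20.8 in female HPLC, against 53.4 ± 6.76 in male LPHC and 66.8 ± 11.03 in male HPLC. Per 1000 reads of the fat body list, AkhR stood at 14.9 ± 3.30 in male LPHC and 4.87 ± 0.594 in male HPLC. On that count it stood at 7.05 ± 0.952 in female LPHC and 6.61 ± 0.463 in female HPLC, and no test was made.

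**Figure D3:**
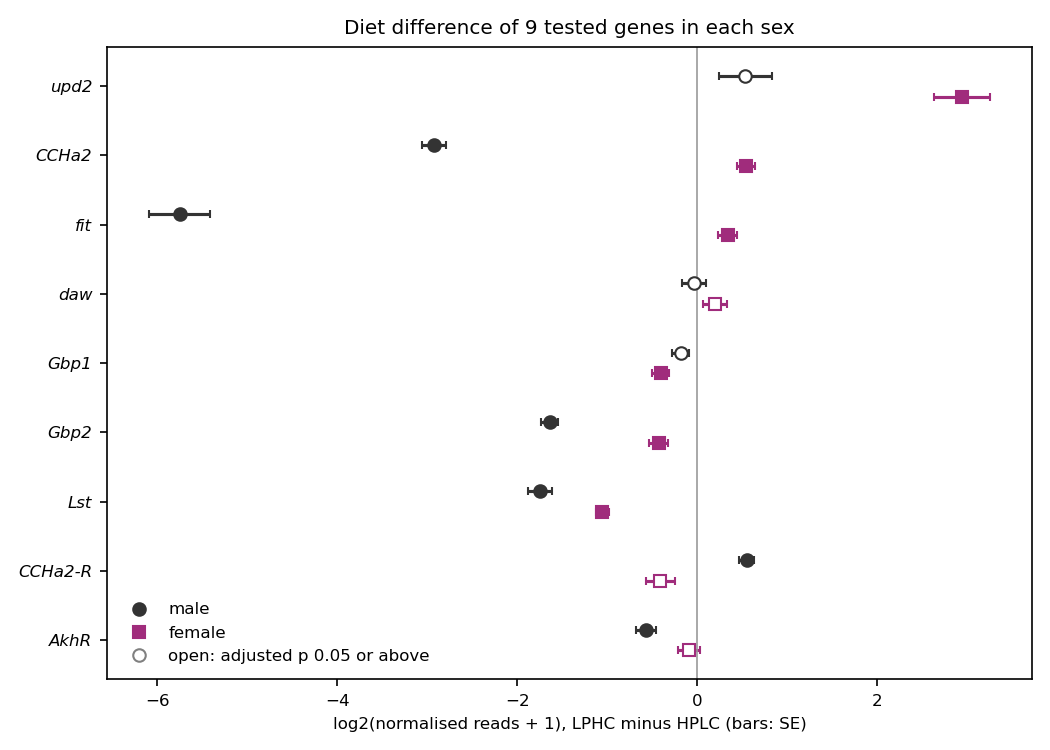
Difference between diets, LPHC minus HPLC on the log2(normalised reads + 1) scale, for the 9 tested members: circles are males, squares are females, bars are SE and open symbols did not pass the adjusted p threshold of 0.05. CCHa2 and fit lie left of 0 in males and right of it in females, and Lst lies left of 0 in both.

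The diet differences themselves differed between the sexes for 7 of 9 members, where 52.3% of 9766 genes did (22.7% with a positive and 29.6% with a negative difference); 6 of the 7 were negative. Over all genes the split of 2217 positive and 2889 negative calls became 3277 and 2238 with upper quartiles made equal, where 7 members were called as well. The male difference minus the female difference was −6.09 for fit (SE 0.39, adjusted p = 1.11e-11), −3.47 for CCHa2 (SE 0.18, adjusted p = 2.22e-13) and −2.41 for upd2 (SE 0.45, adjusted p = 0.000107). For fit and CCHa2 the sexes moved in opposite directions, each past the threshold. It was −1.21 for Gbp2 (SE 0.15, adjusted p = 7.61e-07), −0.69 for Lst (SE 0.16, adjusted p = 0.00107) and 0.96 for CCHa2-R (SE 0.19, adjusted p = 0.000164). Lst and Gbp2 fell in both sexes and fell further in males. For AkhR it was −0.48 (SE 0.18, adjusted p = 0.0297), but that call was lost at the same total (adjusted p = 0.0667), at the same upper quartile (adjusted p = 0.126) and when any 1 of 7 libraries was left out (adjusted p from 0.0538 to 0.0628): male LPHC replicate 2, male HPLC replicates 1, 2 and 4, female LPHC replicates 2 and 4 and female HPLC replicate 4. Among the receptors and paralogues it was −3.10 for Gbp3 (adjusted p = 9.23e-14), −0.88 for mthl10 (adjusted p = 1.69e-06), 0.70 for CCHa1-R (adjusted p = 0.00217) and 0.59 for CCHa1 (adjusted p = 0.00371). For daw (−0.23, SE 0.20, adjusted p = 0.362) and Gbp1 (0.22, SE 0.14, adjusted p = 0.194) no difference between sexes passed, though Gbp1 did at the same total (0.31, adjusted p = 0.0464) and with upper quartiles made equal (0.37, adjusted p = 0.0348).

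Within a group the members spanned orders of magnitude, so their levels were compared in RPKM. In female LPHC fit led at 2255 ± 282, followed by CCHa2 at 380.4 ± 33.3 and Gbp2 at 216 ± 18.2. In female HPLC fit led again at 1588 ± 100.3, followed by Gbp2 at 261 ± 31.5. In male LPHC Gbp1 led at 60.5 ± 9.08 and fit came 8th at 1.996 ± 0.931. In male HPLC Gbp2 led at 130.4 ± 8.08, with CCHa2 at 111 ± 23.7, Lst at 105 ± 13.3 and fit at 83.6 ± 13.3, a cluster in which the ranges of neighbours overlap. Akh, upd2 and CCHa2-R averaged at most 4.02 in each of the 4 groups.

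Set beside fat body markers, the members in males did not share 1 size of change. The tested markers ranged from −0.72 for Apoltp, a lipid transfer particle gene, to −12.91 for Lsp2, and fit, CCHa2, Lst and Gbp2 lay within that range, while AkhR, Gbp1, daw, upd2 and CCHa2-R lay above it. Counted per 1000 reads of the fat body list, fit was still lower on LPHC, at 0.277 ± 0.111 in male LPHC and 3.24 ± 0.451 in male HPLC, and CCHa2 was at 6.96 ± 1.51 in male LPHC and 11.8 ± 2.11 in male HPLC. Lst and Gbp2 lay the other way on that count, with means of 20.5 ± 3.27 in male LPHC and 15.5 ± 2.90 in male HPLC for Lst, and 31.4 ± 5.25 in male LPHC and 21.8 ± 1.398 in male HPLC for Gbp2. For daw it was 36.2 ± 6.17 in male LPHC and 8.31 ± 1.39 in male HPLC. In females, whose fat body shares overlapped between diets, the count was 57.5 ± 7.20 in LPHC and 40.4 ± 5.64 in HPLC for fit, and 7.77 ± 0.984 in LPHC and 14.3 ± 1.64 in HPLC for Lst. No test was made on these counts, and they depend on which genes stand for the tissue: apolpp and Tsf1, an iron carrier of the blood, alone averaged 87130.5 and 90029 normalised reads in male HPLC.

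**Figure D4:**
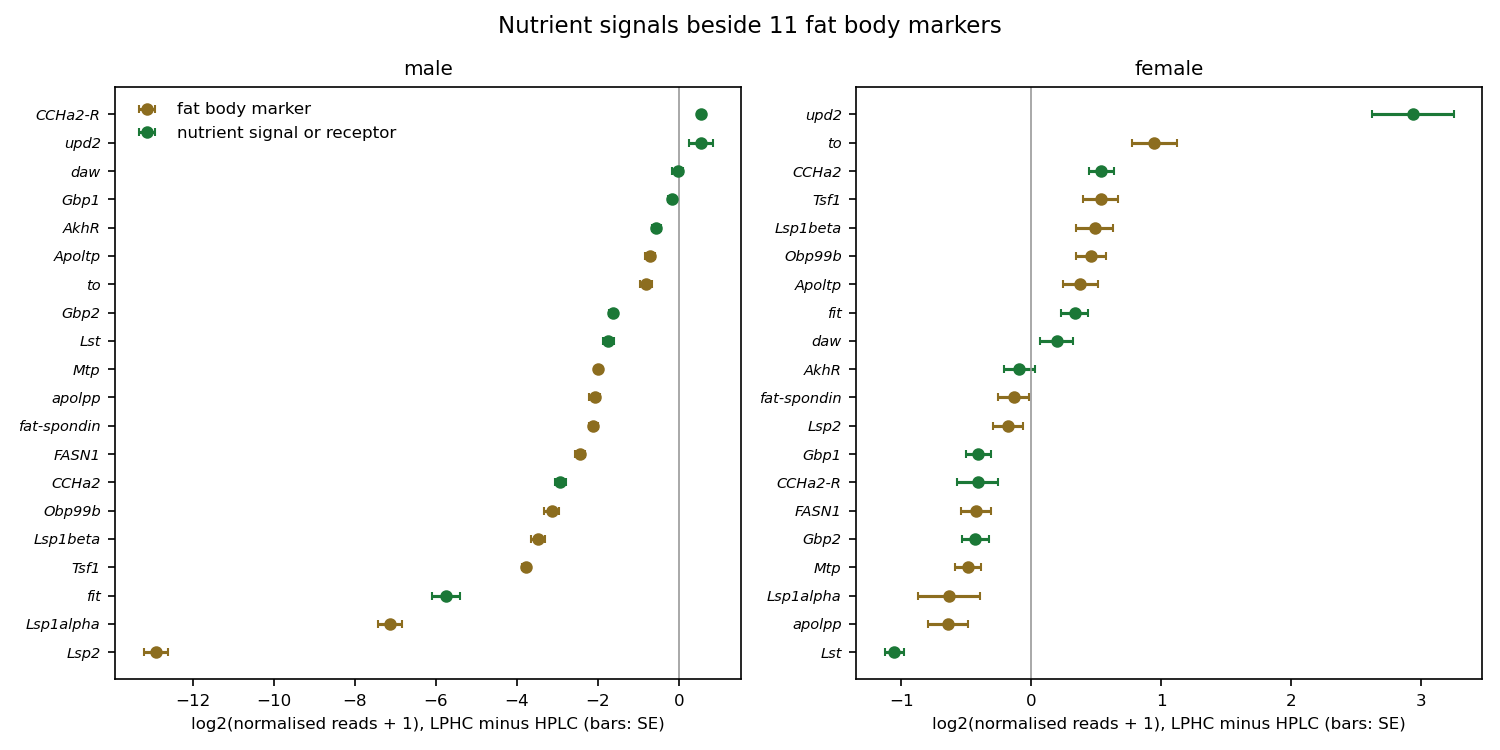
Difference between diets, LPHC minus HPLC on the log2(normalised reads + 1) scale with SE bars, for the 9 tested members (green) and 11 tested fat body markers (brown), sorted within each sex. In males every marker lies left of 0, from −0.72 to −12.91, with fit and CCHa2 among them, while in females the markers lie on both sides.

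The upd2 receptor and the related ligand upd3 were higher on LPHC in both sexes, and upd1 stayed below the filter. The receptor dome, which signals through JAK and STAT, averaged 1511 ± 226 in female LPHC and 1009 ± 95.1 in female HPLC (0.57, SE 0.11, adjusted p = 0.000744), with no overlap. In males it averaged 1869 ± 129.9 on LPHC and 1629 ± 60.1 on HPLC (0.20, SE 0.06, adjusted p = 0.00772). The ligand upd3 averaged 96.0 ± 29.0 in female LPHC and 10.5 ± 4.19 in female HPLC (3.11, SE 0.32, adjusted p = 3.03e-06), and 26.0 ± 14.5 in male LPHC and 9.34 ± 2.81 in male HPLC (1.29, SE 0.33, adjusted p = 0.00378). Socs36E, a feedback inhibitor that JAK-STAT signalling induces, was 0.83 higher in females (adjusted p = 8.83e-06) and 0.32 higher in males (adjusted p = 0.00484). Of 11 tested genes of the JAK-STAT list other than upd2, 3 were higher and 1 lower in females (median 0.07), and 4 were higher and 2 lower in males (median 0.03), beside 31.5% of all genes called in females and 57.2% in males. The counts of higher genes became 6 in females and 9 in males at the same total. Among the falls were et, a short receptor that dampens the pathway, at −0.69 in females (adjusted p = 1.16e-05) and −0.66 in males (adjusted p = 0.000466), and the transcription factor Stat92E, at −0.72 in males (adjusted p = 6.19e-08).

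CCHa1, the paralogue of CCHa2, and its receptor CCHa1-R rose with CCHa2-R in males. CCHa1 averaged 288 ± 38.6 in male LPHC and 158 ± 11.5 in male HPLC (0.85, SE 0.10, adjusted p = 4.88e-06), and CCHa1-R averaged 332 ± 35.9 in male LPHC and 236 ± 21.1 in male HPLC (0.49, SE 0.09, adjusted p = 0.000452). Neither male pair overlapped, and CCHa1 thus moved against CCHa2. In females CCHa1 averaged 106 ± 3.52 on LPHC and 89.7 ± 16.7 on HPLC (0.26, adjusted p = 0.151) and CCHa1-R averaged 107 ± 12.4 on LPHC and 126 ± 28.9 on HPLC (−0.22, adjusted p = 0.289). CCHa1 is known from gut endocrine cells and neurons. In the same male libraries the neuron list took 0.595% ± 0.0601 of reads on LPHC and 0.454% ± 0.0104 on HPLC and the enteroendocrine list 0.136% ± 0.0202 on LPHC and 0.0810% ± 0.00788 on HPLC (exact permutation tests, two-sided, p = 0.00794 and adjusted p = 0.0132 for each). Shares correspond to scaling to the same total, which raised the median male gene by 0.25. On the values as deposited, 3 of 10 neuron genes were higher and 1 lower (median 0.14). Their summed levels overlapped, at 116192 to 145392 in male LPHC and 114536 to 122079 in male HPLC. Of 5 enteroendocrine genes 4 were higher and 0 lower (median 0.47). The enteroendocrine list holds Tk, NPF, AstC, AstA and pros, and in brain libraries it cannot tell gut endocrine cells from neurons. The part of the neuron and enteroendocrine shares in the rise of the 3 CCHamide genes was not tested.

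**Figure D5:**
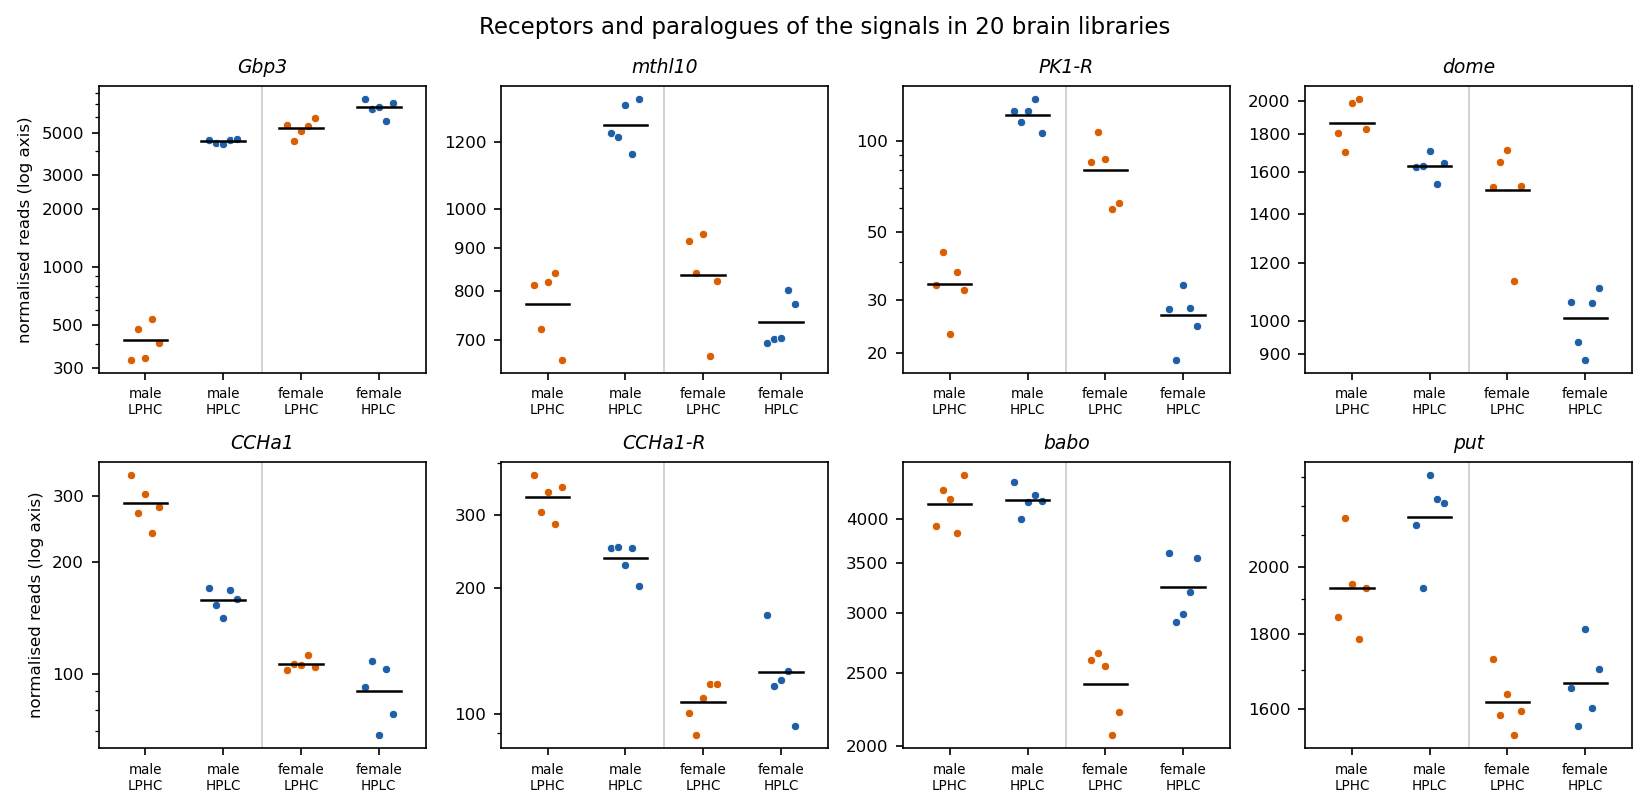
Normalised reads (log axis, scaled separately for each sex) of receptors and paralogues of the members in every library: points are libraries, orange for LPHC and blue for HPLC, and bars are group means of 5 libraries. PK1-R is lower on LPHC in males (33.8 against 122) and higher on LPHC in females (80.2 against 26.7), and Gbp3 averages 417 in male LPHC and at least 4517 in the other 3 groups.

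PK1-R, a G protein-coupled receptor known as the receptor of Lst on insulin-producing cells, was one of the genes with opposite diet differences in the sexes. It averaged 33.8 ± 7.33 in male LPHC and 122 ± 11.7 in male HPLC, a 3.59-fold lower mean (−1.84, SE 0.16, adjusted p = 2.09e-07). It averaged 80.2 ± 19.5 in female LPHC and 26.7 ± 5.31 in female HPLC, a 3.01-fold higher mean (1.54, SE 0.20, adjusted p = 2.37e-05). The libraries of the diets were apart in both sexes, and the male difference minus the female one was −3.38 (adjusted p = 1.88e-10). Lst and PK1-R thus fell together in males and moved apart in females. Related peptides and receptors rose in males: the neuropeptide genes Capa by 0.82 (adjusted p = 2.07e-06) and Hug by 0.52 (adjusted p = 0.000198), and the pyrokinin receptor PK2-R2 by 0.74 (adjusted p = 0.000231). In females Capa was 0.38 higher (adjusted p = 0.00209) and Hug 0.34 higher (adjusted p = 0.0133). Of the 5 genes of this list, 4 were higher and 1 lower in males (median 0.66) and 3 were higher and 0 lower in females (median 0.34). Over all genes tested, 57.2% were called in males and 31.5% in females. The list of insulin-producing and neuroendocrine cells took 0.118% ± 0.00787 of reads in male LPHC and 0.0849% ± 0.00445 in male HPLC (two-sided exact permutation test, p = 0.00794, adjusted p = 0.0132), and its part in these values was not tested. On the values as deposited, 3 of its 6 genes were higher and 1 lower in males (median 0.24).

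The receptor of the growth-blocking peptides, mthl10, fell in males, as Gbp2 and Gbp3 did, while Gbp1 was not called there. It averaged 772 ± 75.7 in male LPHC and 1256 ± 78.9 in male HPLC (−0.70, SE 0.07, adjusted p = 1.49e-06), without overlap, and at the same total the value was −0.45. In females it averaged 836 ± 104 on LPHC and 735 ± 49.1 on HPLC (0.18, adjusted p = 0.153), a value that passed at the same total (0.34, adjusted p = 0.0136) and without female LPHC replicate 4 (adjusted p = 0.0186). Of the activin receptors of Dawdle, the type I receptor babo fell in females. It averaged 2420.0 ± 259.9 in female LPHC and 3252 ± 315 in female HPLC (−0.43, SE 0.09, adjusted p = 0.00183; −0.26 at the same total), and 4186 ± 309.7 in male LPHC and 4239 ± 177 in male HPLC (−0.02, adjusted p = 0.780). The male babo value turned to 0.23 and passed at the same total (adjusted p = 0.00220), and it also turned and passed at the same upper quartile (0.15, adjusted p = 0.0417). The type II receptor put was −0.16 in males (adjusted p = 0.0385), with a sign that turned at the same total, and −0.04 in females (adjusted p = 0.661). The male put call was lost in edgeR (adjusted p = 0.0725) and without any 1 of male LPHC replicates 1, 3, 4 and 5 or male HPLC replicates 1, 3, 4 and 5 (adjusted p up to 0.0953).

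Of 11 activin pathway genes other than daw, 1 was higher and 4 lower in males and 0 were higher and 3 lower in females (medians −0.02 and −0.05), beside 57.2% of all genes called in males and 31.5% in females. The male direction depended on scaling, with 7 higher and 1 lower and a median of 0.23 at the same total. The ligand mav was −0.48 in males (adjusted p = 2.54e-06), and the ligand myo was −0.30 in males (adjusted p = 0.000416; −0.05 with adjusted p = 0.422 at the same total) and −0.37 in females (adjusted p = 0.000785). Of 23 genes listed as targets or effectors of Akh signalling, 6 were higher and 12 lower in males (median −0.19) and 1 was higher and 6 lower in females (median −0.14), beside 57.2% of all genes called in males and 31.5% in females. At the same total these became 10 higher and 6 lower in males (median 0.06) and 4 higher and 3 lower in females. The 6 higher male genes included amon (0.41) and gl (0.17), which are not established targets or effectors of Akh. The largest difference of this list in males was that of tobi (69.9 ± 8.08 on LPHC and 23212.5 ± 3920 on HPLC, log2 difference −8.35, adjusted p = 2.11e-15). The lipase bmm, which opens lipid droplets, was lower in males (2885 ± 267 on LPHC and 10267 ± 1001 on HPLC, log2 difference −1.83, adjusted p = 9.19e-11). It was lower in females as well (11196 ± 569 on LPHC and 13920 ± 557 on HPLC, −0.31, adjusted p = 0.00215). The lipid droplet protein Lsd-1 fell in males (−1.44, adjusted p = 1.04e-06) and rose in females (0.65, adjusted p = 3.03e-05). The transcription factor foxo fell in both, by 0.88 in males (adjusted p = 2.21e-09) and by 0.61 in females (adjusted p = 3.36e-05).

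The insulin list, which holds the insulin-like peptides that these signals are known to regulate, gave 3 higher and 4 lower of 11 tested genes of their list in males, and 1 higher and 4 lower of 10 in females (medians −0.06 and −0.16). At the same total these became 4 higher and 3 lower in males and 3 higher and 3 lower in females, and the all-gene shares called were 57.2% in males and 31.5% in females. Ilp3, made by the insulin-producing cells, rose in males (1.99, adjusted p = 7.98e-08) and was −0.03 in females (adjusted p = 0.845). ImpL2, a secreted protein that binds insulin-like peptides, rose in females (1.18, adjusted p = 9.64e-07) and was −0.04 in males (adjusted p = 0.751). Ilp5, also made by the insulin-producing cells, fell in both sexes, at −1.78 in males (adjusted p = 4.13e-07) and −0.66 in females (adjusted p = 6.12e-05). In males Ilp2 was not called (−0.06, adjusted p = 0.664), while in females it was lower (−0.35, adjusted p = 0.0229). Of 15 genes for other fat body signals and their receptors, 2 were higher and 9 lower in males (median −0.17) and 2 were higher and 4 lower in females (median 0.03); at the same total these became 6 higher and 7 lower in males and 4 higher and 3 lower in females, and over all genes 57.2% were called in males and 31.5% in females. The 2 higher male genes were LpR1 (0.22) and vg (0.62), and vg encodes a transcription factor of wing development and not a fat body signal. The lipoprotein receptor LRP1 was lower in males (−1.15, adjusted p = 1.00e-08), as was mth, a receptor tied to lifespan (−0.76, adjusted p = 4.74e-07). The Toll ligand spz was lower in males (−0.71, adjusted p = 1.34e-06) and higher in females (0.89, adjusted p = 1.21e-06), and the receptor Tl was lower in females (−0.38, adjusted p = 0.000949).

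The genes most like each member were found by Pearson r over the 20 libraries, on log2 values centred within each sex; all points share the same 4 groups, so r mainly tracks the diet differences, and no p is given. For CCHa2 they were Mesh1 (r = 0.99), CG43093 (0.98) and the fat body marker Tsf1 (0.98). For Gbp2 they were CG3246 (0.99), Idgf2 (0.99) and Mtp (0.99), a lipoprotein assembly gene that is on the fat body list as well. For Lst they were Spn43Ab (0.99), Mal-B2 (0.99) and CG31445 (0.99), and Mal-B2 was itself −1.63 in males and −1.06 in females. For fit they were alpha-Est8 (0.98), CG7997 (0.98) and Ance-5 (0.98). The values were lower for AkhR (Fatp1, 0.88, Pal1, 0.88, and CG7536, 0.87), for upd2 (Spn55B, CG18596 and La, each 0.92), for CCHa2-R (CG13743, CG31064 and loh, each 0.92) and for Gbp1 (CG9928, 0.91, CG44014, 0.91, and CG1773, 0.90).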

How the data were processed

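The labels' protocols state that brain RNA was extracted with Trizol and that Illumina libraries were made. HISAT2 was the aligner, per the submitters' processing notes, which give no version. The counter, the build and the use of strand are unknown here, and coordinates are therefore left out. The values that the authors deposited are a normalised signal, gene counts over 1 size factor for each library, with a table of 12206 genes for males and one of 12015 for females. In every library 100% of the values were whole multiples of 1 read (tolerance 0.01), which gave back the reads. There were 0 unused columns of per-sample values. No 2 libraries of a group agreed within sampling noise (chi-square per degree of freedom 7.55 or more, on genes with at least 20 reads in the pair). Exon lengths and overlaps came from the Ensembl annotation of the BDGP6.54 assembly, which may not be the build behind the files, and 12106 of 12441 gene names matched the reference names.

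The members, gene lists and tests were chosen with earlier results of these data known. limma 3.58.1 (R 4.3.3) with the trend option was fitted to log2(value + 1) for genes that reached a value of 10 in 5 or more libraries (two-sided, threshold 0.05). This scale understates changes of low genes. The difference between sexes came from 1 fit to both tables together. The named genes were all members, their direct receptors and paralogues, up to 4 called genes per pathway list and sex with the smallest p, of which some are printed, the fat body markers Lsp2, Fbp1 and apolpp, and 3 like genes for each called member. Other genes were chosen after their values were seen: CG43103 and asRNA:CR45046 for their overlap, Apoltp as the end of a range, and Ilp2, LpR1 and vg. Marker lists were compared as shares of reads, which correspond to scaling to the same total, by exact permutation tests. Settings were varied in the pseudocount, the filter, the scaling, robust moderation and a replicate block; single libraries were left out; edgeR 4.0.16 and DESeq2 1.42.0 were run on the recovered counts. The fit was tested on simulated data. Other steps used Python 3.11.15, pandas 2.3.3 and SciPy 1.17.1.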

Additional observations from a re-analysis of the deposited data

Results flagged for a closer look

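In 48 groups of 5 libraries, 5 held a library far from the other 4 by Dixon's test (critical value 0.710), where chance alone gives about 1 in 20. CCHa2-R read 66.8 normalised reads in female LPHC replicate 5, against 97.3 to 105 in the others. fit read 22953 in female HPLC replicate 3, against 18143 to 19279. AkhR read 932 in male LPHC replicate 2, against 1183 to 1267, and 2340.1 in female HPLC replicate 4, against 3303 to 3631. Yolk protein genes took 0.118% of reads in male HPLC replicate 4, against 0.00666% to 0.00709% in the others. Without the library concerned, limma gave −0.29 for CCHa2-R in females (adjusted p = 0.160), 0.40 for fit in females (adjusted p = 0.00681), −0.49 for AkhR in males (adjusted p = 0.00154) and −0.20 for AkhR in females (adjusted p = 0.144).

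The diet difference differed between the sexes, by the test of the difference itself in limma, for fit (male minus female −6.09), CCHa2 (−3.47), upd2 (−2.41), Gbp2 (−1.21), CCHa2-R (0.96), Lst (−0.69) and AkhR (−0.48). Sex and food recipe cannot be told apart in these 7 values.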

How the results depend on the processing

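The number of members called was 6 in males, 6 in females and 7 for the difference between sexes; it ran from 6 to 7 in males, 5 to 7 in females and 6 to 7 for the difference over all other settings and all single libraries left out. With the replicate block it was 6, 7 and 6, and over all genes the calls were 5354, 2609 and 4644, against 5784, 3133 and 5106 without it. Libraries of the same number did not deviate together (r from −0.129 to 0.00282 over the male pairs and from −0.228 to 0.0478 over the female pairs), so the numbers are not taken to pair the samples. CCHa2-R in females passed under the block (adjusted p = 0.0480) and the AkhR difference (adjusted p = 0.0646) and put in males (adjusted p = 0.0879) did not. The activin list in males then gave 0 higher and 3 lower. Signs turned for some values under scalings that raise the values of most genes. Among them were put in males (−0.16), which was called in the main fit, and Gbp1 in males (−0.19). The cause of these and the other turns was not tested. At the same total, put was 0.0889 in males and 0.120 in females, Gbp1 in males 0.0646, babo in males 0.230, daw in males 0.216 and AkhR in females 0.0738. At the same upper quartile put in males was 0.00521, babo in males 0.146, daw in males 0.133 and the put difference 0.0277. At the same total outside the yolk genes, a setting added after seeing the data, put was 0.0886 in males, 0.0292 in females and 0.0594 for the difference, Gbp1 in males 0.0643, babo in males 0.229 and daw in males 0.216. edgeR gave babo in males 0.00690. With 1 library left out babo in males ran from −0.0530 to 0.0105 and daw in males from −0.134 to 0.0375, and the fat body share in LPHC minus that in HPLC ran from −1.04 to −0.965 percentage points in males and from −0.131 to 0.0477 in females. Low counts limit the precision of upd2, of Akh and of fit in male LPHC.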
